A study of Mus musculus with 24 samples.

Results

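The genes described here are the mouse zinc finger protein genes whose symbol is Zfp followed by a number, read across 24 arrays of stimulated macrophages. Members were all genes with such a symbol in the array's probe table, other than Zfp36, Zfp36l1, Zfp36l2 and Zfp36l3, which encode RNA-binding decay factors of another finger type. The array carried 229 such genes on 321 probes. Of these, 149 were kept because a probe passed detection (p under 0.01) on array A and array B of some group, and they stood among 8622 genes kept in all. Of the others, 78 had no probe that passed, and 2, Zfp313 and Zfp261, were represented by other probes under their current names, Rnf114 and Zmym3, and were left out. The brightest kept probe stood for its gene, and 40 members had more than 1 kept probe. Among the members matched to the annotation, 3 are now called otherwise (Zkscan17, Fezf2 and Zbtb7b, listed as Zfp496, Zfp312 and Zfp67). A further 6 members, Zfp50, Zfp99, Zfp162, Zfp251, Zfp262 and Zfp294, could not be matched and keep the array's name. Whether these have other current names, or encode proteins of another kind, was not checked.

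A C2H2 zinc finger is a short loop held by a zinc ion through cysteines and histidines, and strings of such fingers let a protein read a stretch of DNA. Many Zfp proteins also carry a KRAB domain, which recruits Trim28 and, with it, histone methylating and deacetylating enzymes that silence the bound site, retroviral elements included. Others act without KRAB, as activators, RNA-binding proteins, ubiquitin ligases or mitotic factors, so the shared name is one of structure and not of function.

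The cells were RAW264.7, a single mouse macrophage-like line, exposed to 100 ng/ml LPS (a TLR4 agonist), 1 μM P3C (a lipopeptide agonist of TLR2) or 1 μM R848 (an imidazoquinoline agonist of TLR7), or left untreated, for 1, 2 or 4 h. Each of the 12 groups had 2 Illumina BeadChip arrays, A and B, which the study's methods call duplicate biological samples. With 2 arrays per group the p-values rest on a spread pooled over all groups. Arrays had 12299 to 13917 detected probes of 45281. Of 10 macrophage markers, 10 were kept and 8 were detected on all 24 arrays, whereas none of the T cell, B cell, epithelial, fibroblast or endothelial markers was kept. Of 3 neutrophil markers 1, S100a8, was kept and was detected on all 24 arrays. At 4 h it stood above untreated cells by 0.28 (log2) with LPS and with P3C and by 0.31 with R848, each at an unadjusted p under 0.05 but not called, and its part in the results was not tested. The 6 genes set as a check of stimulation, Tnf and Nfkbia among them, rose with each ligand at 1 and 4 h. In such a culture, fewer cells of a kind and less RNA per cell cannot be told apart.

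Members were dim. Their mean log2 signal over the arrays ran from 6.80 to 9.67 with a median of 7.19, while the median of the 8473 other genes was 8.08. The level at which probes passed detection was 6.86 to 6.94 on the log2 scale, so many members lay just above it. On all 24 arrays 93 members were detected, and 21 were detected on fewer than 12. Zfp207, which encodes the mitotic spindle factor BuGZ, was the brightest at a mean of 9.67, followed by Zfp277, a repressor of the Ink4a/Arf locus in mouse fibroblasts, at 9.41, Zfp639 at 9.41, Zfp330, a nucleolar protein, at 9.35 and Zkscan17, a SCAN and KRAB protein, at 9.35. A member's probe was read on a median of 42 beads per array (20 to 79), with a bead standard error whose median was 2.62% of the signal.

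Promoter sequence helps to picture these genes, most of which gave dim signals. The RefSeq promoter table (GRCm38.p6) held 122 of the members. In the 250 bases before the transcript start, with both strands searched, the GC box GGGCGG lay in 54.9% of these members and in 35.4% of all 27025 genes of the table. The ETS core CCGGAAG lay in 17.2% and 7.83%, and the TATA box TATAAA in 6.56% and 14.3%. The median GC content of the windows was 57.6% for the members and 52.8% for all genes of the table. The AP-1 site TGANTCA lay in 6.56% and 7.82%, and the interferon response core, GAAA repeated after a gap of 2 bases, in 1.64% and 3.46%. The members had passed detection in these cells, whereas the table holds genes whether detected here or not. The shares over the other kept genes were not counted, so these differences cannot be assigned to the Zfp genes as such. A match is only a description of letters, and the motifs were chosen with the array results known. Windows are shown 5′ to 3′ for 3 members whose falls at 1 h were the most stable (Zfp12, Zfp763 and Zfp28) and for Zfp281, a member that rose, with GGGCGG and CCGGAAG on either strand in capitals.
Zfp12 (chr5:143234913-143235162, plus strand): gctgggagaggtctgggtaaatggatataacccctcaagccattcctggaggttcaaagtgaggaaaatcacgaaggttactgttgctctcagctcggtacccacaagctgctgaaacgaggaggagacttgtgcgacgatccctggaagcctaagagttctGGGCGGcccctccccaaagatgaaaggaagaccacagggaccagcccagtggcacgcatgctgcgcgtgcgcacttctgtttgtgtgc
Zfp763 (chr17:33033382-33033631, minus strand): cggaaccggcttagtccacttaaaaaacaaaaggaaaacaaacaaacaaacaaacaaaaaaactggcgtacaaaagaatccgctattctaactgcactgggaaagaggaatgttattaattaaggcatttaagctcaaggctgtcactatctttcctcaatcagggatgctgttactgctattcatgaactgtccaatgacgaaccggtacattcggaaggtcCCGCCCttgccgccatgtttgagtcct
Zfp28 (chr7:6383068-6383317, plus strand): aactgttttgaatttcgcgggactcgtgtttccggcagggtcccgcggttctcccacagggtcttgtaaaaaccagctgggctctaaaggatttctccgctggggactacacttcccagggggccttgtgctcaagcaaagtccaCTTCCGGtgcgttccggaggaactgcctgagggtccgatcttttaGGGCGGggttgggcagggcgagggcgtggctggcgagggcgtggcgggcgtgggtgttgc
Zfp281 (chr1:136624651-136624900, plus strand): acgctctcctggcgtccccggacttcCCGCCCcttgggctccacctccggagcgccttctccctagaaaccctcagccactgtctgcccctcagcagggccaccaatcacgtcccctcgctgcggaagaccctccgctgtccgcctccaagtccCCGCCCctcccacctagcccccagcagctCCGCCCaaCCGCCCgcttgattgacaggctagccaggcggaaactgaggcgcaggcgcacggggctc
The GC content of these windows was 55.6% for Zfp12, 42.4% for Zfp763, 61.6% for Zfp28 and 69.6% for Zfp281. The windows of Zfp12 and Zfp28 end past the annotated starts of these genes, at 143235138 and 6383206, so part of each window lies within the annotated gene. Of the 15 members that fell at 1 h of LPS, 11 had a window, of which 4 held GGGCGG, 3 held CCGGAAG, and 0 held the AP-1 site or the interferon response core.

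At 1 h more members fell than rose with each ligand. With LPS 15 of 149 members were lower than in untreated cells of that time (10.1%) and 2 were higher (1.34%), where 1.41% of all 8622 genes were lower and 2.1% higher. With P3C 8 members fell (5.37%) and 1 rose (0.671%), beside 1.29% and 1.73% of all genes. With R848 11 members fell (7.38%) and 0 rose, with 4 higher at an unadjusted p under 0.05, beside 1.38% and 2.03% of all genes. Calls were made in limma at an adjusted p under 0.05 over all 8622 genes. The share of members that fell at 1 h was thus several times the share over all genes with each ligand, and the same untreated arrays served all 3 comparisons. No test of the members against the other genes was made. Among the 93 members detected on all 24 arrays, 10 fell and 2 rose with LPS at 1 h, beside 1.53% and 2.19% of the 6853 genes so detected.

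**Figure D1:**
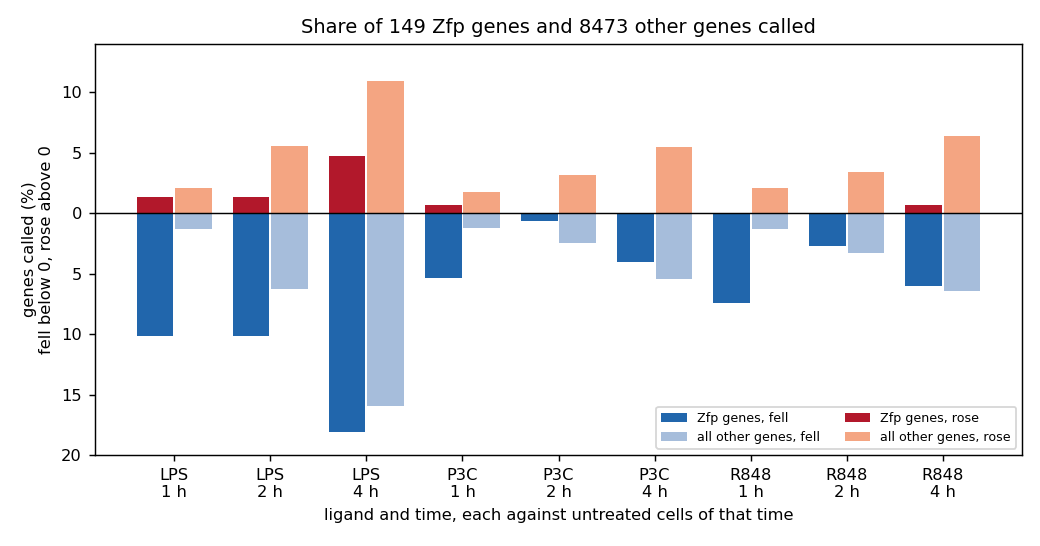
Percentage of the 149 Zfp genes (dark bars) and of the 8473 other genes (light bars) called at an adjusted p under 0.05, for each ligand and time against untreated cells of that time (x axis); bars below 0 are genes that fell and bars above 0 are genes that rose. At 1 h the dark bars below 0 reach 10.1%, 5.37% and 7.38% beside light bars of 1.26%, 1.22% and 1.27%, and at 4 h of LPS they are 18.1% and 15.9%.

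The count of calls at 1 h depended on every array, and without any 1 of them fewer of all genes were called as well. In these fits the members' median was −0.04 to −0.09 (log2) over the 3 ligands, beside −0.01 to −0.04 for all genes. The LPS count of 17 became 9 without untreated A, 5 without untreated B, 6 without LPS A and 9 without LPS B. The P3C count of 9 became 7, 4, 3 and 4, and the R848 count of 11 became 5, 4, 6 and 3, in the same order of untreated A and B and ligand A and B. Under scaling by each array's median in place of quantile normalization, 2 members fell and 0 rose with LPS at 1 h, while 0.0812% of all genes fell. The sample descriptions give each array a code and name no slide. Arrays whose codes begin with the same number were taken here to share a slide, wherever slides are named. Whether they did was not checked. On that reading, treated and untreated arrays of the same time never lay on 1 slide. Slide and treatment therefore cannot be told apart in the matched comparisons. On slide 3, LPS 1 h B and P3C 1 h B lay beside untreated 4 h A, and there all 15 members that fell at 1 h of LPS were lower with each ligand, with medians of −0.41 and −0.35 (log2). Since LPS 1 h B was among the arrays that chose these 15, its value is a description, while neither P3C 1 h B nor untreated 4 h A entered that comparison. Over all 149 members the medians on that slide were −0.10 and −0.08, against −0.03 and −0.01 over all genes. These within-slide values, in which the times of the arrays differ, were chosen after the data had been seen.

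In all, 8 of the 149 members (5.37%) and 69 of the 8622 genes (0.8%) fell with each of the 3 ligands at 1 h. The 3 comparisons share both untreated arrays, and the A arrays of the 3 ligands lay on 1 slide. Zfp12 was among these 8 members. Zfp12 encodes a KRAB zinc finger protein. Its log2 signal was 8.04 and 7.90 on the untreated arrays at 1 h, 7.25 and 7.20 after LPS, 7.33 and 7.26 after P3C, and 7.23 and 7.28 after R848. All 6 stimulated arrays lay below both untreated arrays. The differences were −0.74 with LPS (SE 0.0928, adjusted p = 9.98e-05), −0.68 with P3C (adjusted p = 0.000365) and −0.72 with R848 (adjusted p = 0.000162). At 2 h the untreated arrays read 8.11 and 7.85, LPS 7.69 and 7.55, P3C 7.98 and 7.88 and R848 7.97 and 7.77. Only the LPS arrays did not overlap with the untreated arrays at that time, lying lower by 0.36 on average (adjusted p = 0.0175; 0.192 without untreated A and 0.121 without LPS B). At 4 h all 3 ligands were lower again, LPS by 0.59 (7.52 and 7.53 against 8.17 and 8.06, adjusted p = 0.000195), P3C by 0.40 (adjusted p = 0.00919) and R848 by 0.41 (adjusted p = 0.00737). The P3C and R848 calls at 4 h were lost without untreated A (−0.35 and −0.36) or the ligand's array A (−0.36 and −0.39). Within slide 9 the differences of the 4 h B arrays from untreated 2 h B were smaller, −0.32 for LPS, −0.09 for P3C and −0.12 for R848. Within slide 7 LPS 4 h A gave −0.59 against untreated 2 h A.

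Zfp763 followed a similar course in the matched comparisons. Within slide 9 its 4 h B arrays differed from untreated 2 h B by −0.57 with LPS, −0.54 with P3C and −0.53 with R848. It read 7.53 and 7.45 in untreated cells at 1 h, and with LPS 6.88 and 6.82, below detection on both arrays, which puts it at least 1.48-fold lower (adjusted p = 0.00124). With P3C it read 6.90 and 6.86 (−0.62, adjusted p = 0.00207) and with R848 6.93 and 6.85 (−0.60, adjusted p = 0.00217), each with 1 of its 2 arrays detected. At 2 h the signal was partly back with each ligand, at 7.15 and 7.26 for LPS, 7.10 and 7.39 for P3C and 7.15 and 7.47 for R848, and only LPS passed the test (−0.34, adjusted p = 0.0394; lost without any 1 of the 4 arrays, where it was −0.29 to −0.40). At 4 h it was lower by 0.54 with LPS (adjusted p = 0.00101), by 0.50 with P3C (adjusted p = 0.00402, but 0.0558 without untreated A) and by 0.45 with R848 (adjusted p = 0.00725, but 0.0828 without untreated A and 0.0681 without R848 B).

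Zfp28, another KRAB protein gene conserved among mammals, was called lower only at 1 h. At 1 h it read 8.37 and 8.41 in untreated cells, 7.63 and 7.60 after LPS, 7.69 and 7.69 after P3C, and 7.59 and 7.58 after R848. The groups were far apart for their spread, with differences of −0.77, −0.70 and −0.80 (SE 0.0874, adjusted p = 3.66e-05, 0.000152 and 2.73e-05). At 4 h it read 7.84 and 8.01 untreated and 7.89 and 8.02 with LPS, which overlapped. The LPS effect at 4 h exceeded that at 1 h by 0.80 (SE 0.124, adjusted p = 0.0004), and by 0.38 under median scaling (adjusted p = 0.4). Part of that change lay in the controls, since untreated cells themselves stood lower at 4 h than at 1 h by 0.46, a difference that did not pass the test (adjusted p = 0.102). On slide 3 the difference was smaller, −0.23 for LPS 1 h B and −0.15 for P3C 1 h B against untreated 4 h A.

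Zfp12, Zfp28 and Zfp763 were the members whose calls at 1 h held with each ligand when any 1 array was left out. Under median scaling Zfp763 kept its call with LPS at 1 h (−0.67, adjusted p = 0.00252), whereas Zfp12 and Zfp28 kept their size (−0.73 and −0.72) but not the call (adjusted p = 0.358 and 0.132). When only the arrays compared were fitted, Zfp28 kept its 1 h call with each ligand. In that fit Zfp12 lost its call with LPS, and Zfp763 lost its calls with LPS and R848.

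Zfp41 had a lasting fall. Its untreated arrays at 1 h read 7.67 and 8.07, and the stimulated arrays 7.14 and 7.28 (LPS), 7.24 and 7.21 (P3C) and 7.17 and 7.22 (R848), all lower. The 1 h differences of −0.66, −0.65 and −0.67 were called (adjusted p = 0.0254, 0.0331 and 0.0237), but without untreated B they were −0.46, −0.44 and −0.47 and the calls were lost, as they were without either array of the ligand. At 2 h only LPS passed (−0.67, adjusted p = 0.00987, lost without untreated A at −0.61 or LPS A at −0.52). At 4 h LPS read 7.12 and 7.13 against 7.80 and 8.03, a fall of 0.79 (SE 0.155, adjusted p = 0.00127) that held without each array. P3C and R848 were lower by 0.65 each at 4 h (adjusted p = 0.0123 and 0.0104), and their calls were lost without untreated B (−0.53 and −0.54), without array B of the ligand (−0.60 and −0.64) and, for R848, without array A (−0.67). A second probe of Zfp41 gave −0.51 at 1 h and −0.69 at 4 h of LPS (adjusted p = 0.0409 and 0.0009, adjusted over all kept probes here and for the other second probes).

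Zfp862-ps, annotated as a pseudogene, was lower in 8 of the 9 comparisons with untreated cells, more often than any other member. It read 7.43 and 7.44 untreated, 7.16 and 7.16 after LPS, 7.15 and 7.17 after P3C, and 7.18 and 7.12 after R848 at 1 h. The fall was small at first, −0.27 to −0.28, and these 1 h calls were lost without any single array. At 4 h the untreated arrays read 7.50 and 7.42 and the LPS arrays 6.89 and 6.91, below detection, which puts LPS at least 1.46-fold lower (adjusted p = 9.14e-06). The P3C and R848 arrays read 7.03 and 7.004, and 6.97 and 6.97, so they lay between LPS and untreated cells (−0.45 and −0.49, adjusted p = 0.000244 and 8.16e-05). All 3 calls at 4 h held without each array in turn.

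Zfp282, whose human counterpart represses a retroviral long terminal repeat, had the largest fall at 1 h of LPS, 0.82 (SE 0.167, adjusted p = 0.00966). Its untreated arrays read 8.82 and 9.17, apart from each other by more than any stimulated pair, against 8.04 and 8.31 after LPS, 8.29 and 8.20 after P3C, and 8.16 and 8.30 after R848. The P3C and R848 differences were −0.75 and −0.77 (adjusted p = 0.0216 and 0.0159). Without untreated B the 3 differences were −0.65, −0.58 and −0.60 and were not called, nor were they without LPS A (−0.68), without P3C A or B (−0.79 and −0.70) or without R848 A or B (−0.70 and −0.84). At 4 h the LPS fall was 0.59 (adjusted p = 0.0153), lost without untreated A (−0.55), LPS A (−0.62) or LPS B (−0.57) and at the threshold without untreated B (−0.64, adjusted p = 0.05).

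**Figure D2:**
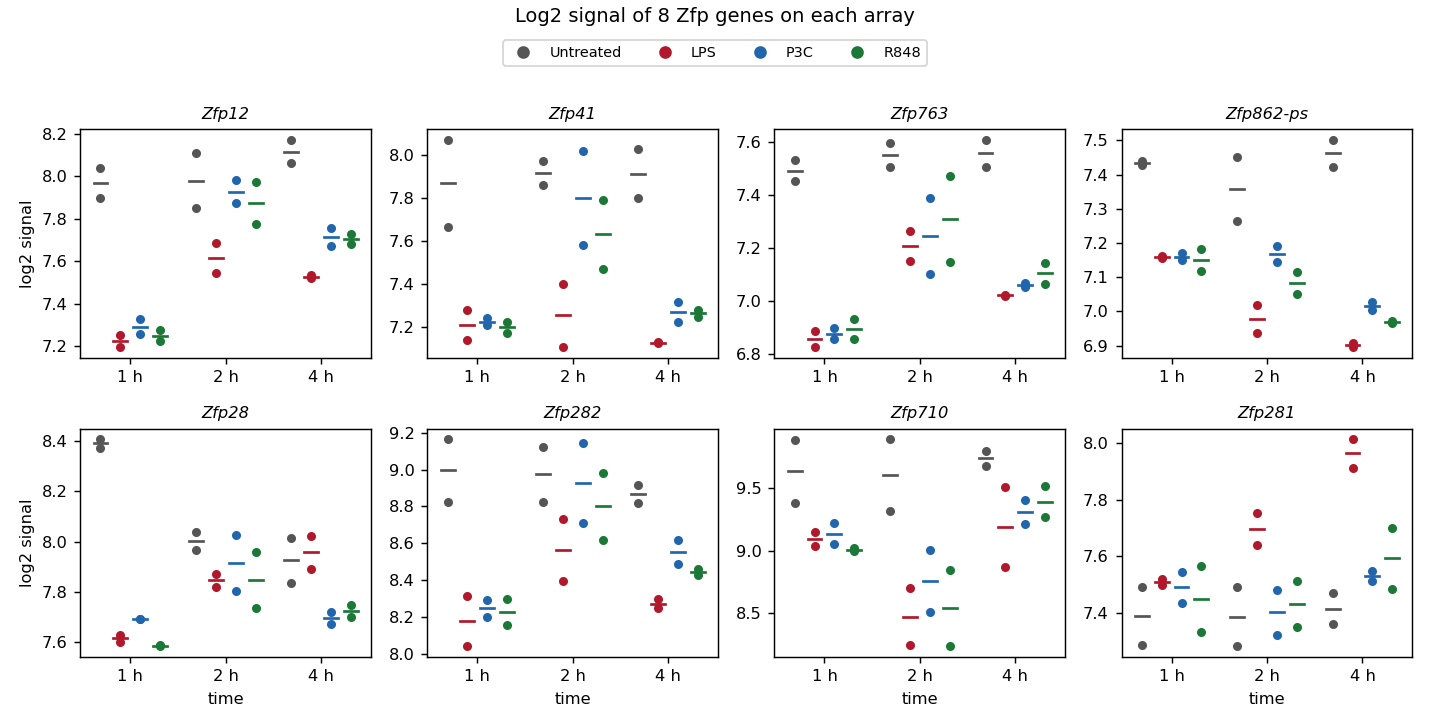
Log2 signal (y axis, own scale for each gene) of 8 Zfp genes on each of the 24 arrays, by time (x axis) and treatment (colour); points are single arrays and short lines are means of 2. Zfp12, Zfp41 and Zfp763 are low on all 6 stimulated arrays at 1 h. With P3C and R848 they are nearer to the untreated level at 2 h, where Zfp12 overlaps with it, and lower again at 4 h. The untreated level of Zfp28 is highest at 1 h, and Zfp281 is high on the 2 LPS arrays at 4 h (8.01 and 7.91).

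The early falls were called again later about as often as those of all genes, on arrays that share none with the 1 h comparison. Of the 15 members lower at 1 h of LPS, 9 were also lower at 2 h (60%, and 60% of the 15 called then) and 11 at 4 h (73.3%, and 40.7% of the 27 called then). Of the 122 genes of any kind that fell at 1 h, 73 also fell at 2 h (59.8%, and 13.4% of the 546) and 93 at 4 h (76.2%, and 6.75% of the 1377). With LPS the median of the 15 members was −0.44 after 1 h, −0.33 after 2 h and −0.38 after 4 h. With P3C the medians were −0.36, −0.12 and −0.24, and with R848 −0.37, −0.17 and −0.28. With P3C and R848 the values at 2 h were thus the nearest to 0. The values at 1 h of LPS chose these 15 members and are a description. Of the 15, 13 read lower on all 6 stimulated arrays at 1 h than on all 6 untreated arrays of any time, while Zfp101 and Zfp512b did not. This too is a description, since the LPS and untreated arrays at 1 h that chose the 15 are among those compared. The share over all genes was not counted. Zfp46 shows a short course, chosen here after its values were seen. It read 8.21 and 8.33 untreated and 7.52 and 7.86 with LPS at 1 h (−0.58, adjusted p = 0.0414, lost without untreated A at −0.64, untreated B at −0.52 or LPS A at −0.41, and under a slide block, in which the slide is a random term), and 8.33 and 8.26 against 8.37 and 8.47 at 4 h (−0.12, adjusted p = 0.609).

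At 2 h of LPS 15 members fell (10.1%) and 2 rose (1.34%), beside 6.33% and 5.52% of all genes. With P3C 1 member fell (0.671%) and 0 rose, with 6 higher at an unadjusted p under 0.05, beside 2.41% and 3.07% of all genes. With R848 4 fell (2.68%) and 0 rose, with 4 higher at an unadjusted p under 0.05, beside 3.24% and 3.34%. For P3C and R848 the shares at 2 h were therefore below or near those of all genes. Leaving out 1 array also lowered the count over all genes, except for R848 without R848 B. The LPS count of 17 became 6 without untreated A, 9 without untreated B and 4 without LPS A. The R848 count of 4 became 0 without untreated A and 1 without R848 A, and the P3C count of 1 became 2 without untreated A or P3C B and 0 without P3C A.

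Zfp710 had the largest fall at 2 h. It read 9.89 and 9.32 untreated, 8.70 and 8.25 after LPS, 9.01 and 8.51 after P3C, and 8.85 and 8.24 after R848. Array B was lower than array A in every group of that time, and each stimulated array lay below both untreated arrays. With LPS the fall was 1.13 (SE 0.261, adjusted p = 0.00932). The R848 difference of −1.06 also passed (adjusted p = 0.0209), while the P3C difference of −0.85 did not pass (adjusted p = 0.0815). The LPS call was lost without untreated A (−0.84) or LPS B (−0.90), and the R848 call without untreated A (−0.77) or R848 B (−0.76). The second, dimmer probe of Zfp710 gave a smaller fall at 2 h of LPS (−0.23, adjusted p = 0.0448). Other falls at 2 h of LPS were those of Zfp251 (−0.68, adjusted p = 0.021, lost without untreated A at −0.69, untreated B at −0.67 or LPS A at −0.48) and Zfp637 (−0.53, adjusted p = 0.00879, lost without untreated B at −0.38 or LPS A at −0.34). Zfp639 was lower with LPS (−0.48, adjusted p = 0.00181) and with R848 (−0.33, adjusted p = 0.0343, lost without any single array at −0.32 to −0.34). Zfp239 was the only member that fell with P3C at 2 h (−0.27, adjusted p = 0.0367, lost without untreated A at −0.25, untreated B at −0.28 or P3C A at −0.21). Zfp639 and Zfp862-ps were the only members whose LPS calls at 2 h held without each array in turn.

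At 4 h the falling shares of the members were near those of all genes with each ligand, and the rising shares were lower. With LPS 27 fell (18.1%) and 7 rose (4.70%), beside 16% and 10.8% of all genes. With P3C 6 fell (4.03%) and 0 rose, with 7 higher at an unadjusted p under 0.05, beside 5.43% and 5.4%. With R848 9 fell (6.04%) and 1 rose (0.671%), beside 6.38% and 6.3%. The median of the members at 4 h of LPS was −0.07, against −0.06 over all genes, with an interquartile range of −0.20 to 0.03. Under median scaling the median of all genes moved to −0.33 in this comparison and that of the members to −0.24, so a rise here is one relative to the bulk of genes. In that fit 29 members fell (19.5%) and 0 rose, beside 16.6% and 3.77% of all genes. Without any 1 array of a comparison at 4 h, fewer of all genes were called with each ligand. The LPS count of 34 became 19 without untreated A, 17 without untreated B and 20 without LPS A or LPS B, and was 18 where only genes detected on all 24 arrays were fitted. The P3C count of 6 became 2 without untreated A and 3 without untreated B, and the R848 count of 10 became 2 without untreated A and 3 without untreated B or either R848 array.

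Zfp219, known in mouse cartilage as a partner of Sox9, had the largest fall at 4 h of LPS, 1.10 (SE 0.277, adjusted p = 0.00758). It read 8.64 and 8.72 in untreated cells and 7.87 and 7.29 with LPS, so the groups did not overlap but the LPS arrays were apart. The call was lost without LPS B (−0.81, adjusted p = 0.102) and just lost without untreated B (−1.06, adjusted p = 0.0504). P3C (7.71 and 8.18) and R848 (7.66 and 8.08) differed from untreated cells by −0.74 and −0.81 and did not pass (adjusted p = 0.11 and 0.0696). A second probe gave −0.50 with LPS (adjusted p = 0.000595).

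Zfp692, whose human counterpart is a repressor phosphorylated by AMPK, read 7.83 and 7.97 untreated and 7.28 and 7.35 with LPS at 4 h. Both LPS arrays were lower, by 0.58 on average (SE 0.11, adjusted p = 0.000926), and its second probe gave −0.28 (adjusted p = 0.0249). Zfp512b (−0.57, adjusted p = 0.00197), Zfp637 (−0.56, adjusted p = 0.00286) and Zfp50 (−0.46, adjusted p = 0.00124) also fell, and each of these, like Zfp692, held without each array in turn. Zfp472 fell too (−0.47, adjusted p = 0.00309), but not without LPS A (−0.35). Zfp87 fell by 0.38 with LPS (adjusted p = 0.00141), which held without each array. Its falls with P3C (−0.30, adjusted p = 0.0182) and R848 (−0.28, adjusted p = 0.022) were lost without untreated A (−0.28 and −0.26), untreated B (−0.32 and −0.31) or the ligand's array A (−0.26 each), and that with R848 also without R848 B (−0.31) and under the slide block.

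Zfp64, a coactivator of NF-κB p65 in mouse macrophages, read 8.59 and 8.77 untreated and 8.12 and 8.14 with LPS at 4 h. It was lower by 0.55 on average (adjusted p = 0.011), a call lost without untreated B (−0.46) or LPS A (−0.54). A second probe fell as well (−0.49, adjusted p = 0.0205), whereas another gave −0.12 (adjusted p = 0.469). P3C read 8.45 and 8.44 and R848 8.47 and 8.44, between LPS and untreated cells.

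**Figure D3:**
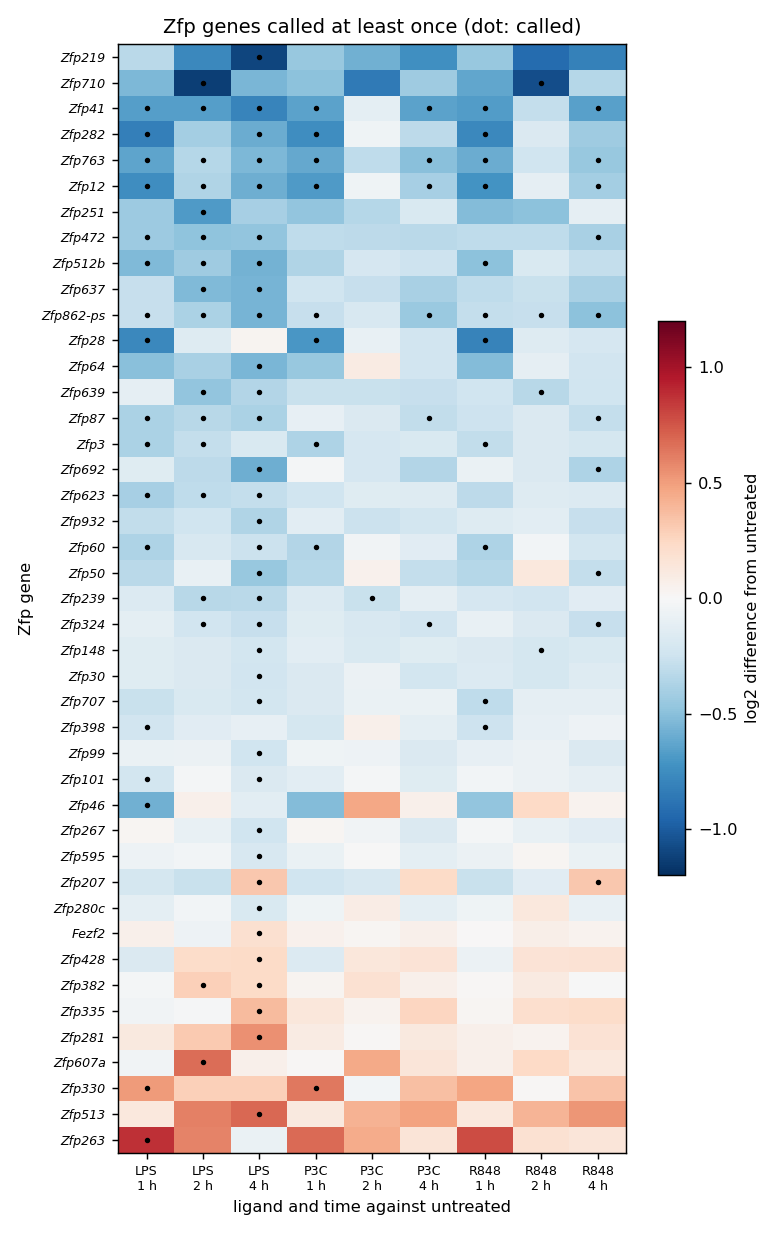
Log2 difference from untreated cells of the same time (colour) for the 43 Zfp genes called in at least 1 of 9 comparisons (rows, ordered by their mean difference) against ligand and time (columns); a dot marks an adjusted p under 0.05. The dots lie mostly in the LPS columns and in the 1 h columns, and 33 genes have dots for falls, 10 for rises and 0 for both.

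Over the 9 comparisons 33 members fell at least once (22.1%, beside 18.4% of all genes) and 10 rose at least once (6.71%, beside 13.5%), while 0 did both and 106 were never called (71.1%, beside 68.5%). Members that rose at 4 h of LPS had a median mean signal of 7.23, those that fell 7.42, and those never called 7.16.

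Zfp281, a partner and regulator of pluripotency factors in embryonic stem cells, was the one member called between ligands. At 4 h it read 7.47 and 7.36 untreated, 8.01 and 7.91 after LPS, 7.51 and 7.55 after P3C, and 7.70 and 7.49 after R848. Only the LPS arrays stood above all others of that time. LPS was higher than untreated by 0.55 (SE 0.109, adjusted p = 0.00142), a call that held without each array, and a second probe rose by 0.59 (adjusted p = 0.000969). P3C and R848 stood above untreated by 0.11 and 0.18, which did not pass (adjusted p = 0.634 and 0.364). LPS exceeded P3C by 0.43 (adjusted p = 0.0269) and R848 by 0.37 (adjusted p = 0.074). Within slide 9, which held the B arrays of the 3 ligands, LPS exceeded P3C by 0.37 and R848 by 0.43. The LPS to P3C call was lost without any single array (0.38 to 0.48) and under neqc and median scaling, and under median scaling the rise over untreated was 0.22 (adjusted p = 0.437). At 2 h it read 7.75 and 7.64 with LPS against 7.49 and 7.28, which did not pass (0.31, adjusted p = 0.0846).

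Zfp513, whose human counterpart is mutated in a retinal degeneration, rose by 0.69 with LPS at 4 h (7.67 and 7.80 to 8.52 and 8.33, SE 0.196, adjusted p = 0.0164). P3C (8.08 and 8.35) and R848 (8.12 and 8.40) were also above both untreated arrays, by 0.48 and 0.53, without passing the test (adjusted p = 0.147 and 0.0995). The LPS call was lost without untreated A (0.62) or LPS A (0.59). Zfp335, a factor that mouse T cells need to leave the thymus, read 6.96 and 6.97 untreated and 7.29 and 7.40 with LPS (0.38, adjusted p = 0.0192, lost without untreated A or B or LPS B, at 0.33 to 0.38). Under median scaling the calls of Zfp513 and Zfp335 were lost as well. Smaller rises at 4 h of LPS were those of Zfp382 (0.23, adjusted p = 0.038), Zfp428 (0.23, adjusted p = 0.0337) and Fezf2 (0.19, adjusted p = 0.0457). None of these held without each array or under median scaling, nor did those of Zfp382 and Zfp428 with slide fitted as a random block.

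Zfp207 was the brightest member and was higher late. At 1 h it read 9.69 and 9.59 untreated and 9.56 and 9.29 with LPS, and at 4 h 9.79 and 9.67 untreated, 10.05 and 10.04 after LPS, 9.95 and 9.97 after P3C, and 10.07 and 10.03 after R848. All 6 stimulated arrays at 4 h were above both untreated arrays. It rose by 0.32 with LPS (adjusted p = 0.0266) and 0.32 with R848 (adjusted p = 0.0451), and the P3C difference was 0.23 (adjusted p = 0.167). The LPS call was lost without untreated B (0.26), LPS A (0.31) or LPS B (0.33), and the R848 call without any single array (0.26 to 0.38) and under the slide block. The LPS effect at 4 h exceeded that at 1 h, −0.21, by 0.53 (adjusted p = 0.0235), which was lost without 5 of the 8 arrays (untreated 1 h A, LPS 1 h B, untreated 4 h B and both LPS 4 h arrays, 0.40 to 0.54). The second probe of Zfp207 gave 0.045 at 4 h of LPS, and under median scaling the brighter probe gave −0.11, so the direction is relative to the scaling.

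At 1 h the rises were those of Zfp263 and Zfp330. Zfp263, a SCAN and KRAB protein gene, read 9.08 and 8.67 untreated, 9.47 and 10.03 after LPS, 9.54 and 9.57 after P3C, and 9.37 and 9.95 after R848. All stimulated arrays lay above both untreated arrays, and LPS passed the test (0.88, SE 0.217, adjusted p = 0.0361, lost without untreated B at 0.67 or LPS B at 0.60). At 4 h its LPS arrays (8.80 and 8.70) overlapped with the untreated (8.97 and 8.69). Zfp330 read 9.22 and 9.06 untreated, 9.81 and 9.497 with LPS and 9.72 and 9.83 with P3C, a rise of 0.51 and 0.63 (adjusted p = 0.0377 and 0.0105), and 9.73 and 9.51 with R848 (0.47, adjusted p = 0.0572). The LPS call of Zfp330 was lost without untreated A (0.59), untreated B (0.43) or LPS A (0.35), and the P3C call without untreated B (0.55), P3C A (0.69) or P3C B (0.58). Zfp607a rose at 2 h of LPS, from 7.26 and 7.27 to 8.04 and 7.83 (0.67, adjusted p = 0.0239), with values of 0.06 at 4 h and −0.04 at 1 h. Zfp382, undetected in untreated cells at 2 h, was at least 1.21-fold higher with LPS at that time (adjusted p = 0.0223). Both of these calls at 2 h were lost without either untreated array or LPS A.

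**Figure D4:**
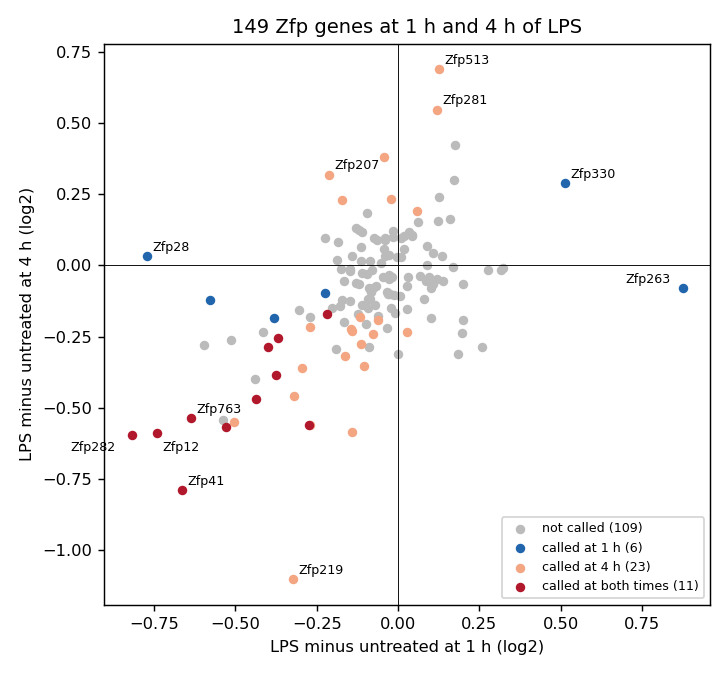
Log2 difference between LPS and untreated cells at 1 h (x axis) and at 4 h (y axis) for the 149 Zfp genes; each point is a gene, coloured by the times at which it was called. Of these, 11 were called at both times, 6 at 1 h and 23 at 4 h; Zfp28 lies at −0.77 and 0.03, Zfp263 at 0.88 and −0.08, and Zfp281 at 0.12 and 0.55.

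At 4 h LPS against P3C gave 1 member higher, Zfp281, and 0 lower, beside 4.08% and 1.73% of all genes, with 5 higher and 5 lower at an unadjusted p under 0.05. LPS against R848 gave 0 in limma, with 5 higher and 6 lower at an unadjusted p under 0.05, beside 3.46% and 1.23% of all genes. R848 against P3C gave 0, also at an unadjusted p under 0.05, as it did over all genes (0%). With the slide as a random block (correlation within slides 0.602), 10 members were lower (6.71%) and 3 higher (2.01%) for LPS against P3C, beside 11% and 7.67% of all genes. In the same fit 9 were lower (6.04%) and 4 higher (2.68%) for LPS against R848, beside 10.5% and 7.67%. On slide 9 the medians over members were −0.03 for LPS less P3C and −0.02 for LPS less R848. Untreated cells at 4 h against 1 h gave 0 members, with 7 higher and 2 lower at an unadjusted p under 0.05, beside 0.058% higher and 0.0116% lower over all genes. The LPS effect at 4 h less that at 1 h was called for 3 members, Zfp28, Zfp207 and Zfp428, all higher at 4 h, beside 5.54% of all genes higher and 4.48% lower. Of these, Zfp28 held without each array in turn. For Zfp428 the difference was 0.41 (adjusted p = 0.0232; lost without 5 of the 8 arrays, namely untreated 1 h B, LPS 1 h A, both untreated 4 h arrays and LPS 4 h A, at 0.32 to 0.42, and under the slide block, at an adjusted p of 0.0733).

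Among 26 members with a described role, 16 were kept. With LPS at 4 h 3 rose (Zfp207, Zfp281 and Zfp335) and 1 fell, with a median of −0.004, beside 10.8% higher and 16% lower over all genes. The fall was that of Zfp148, which binds GC-rich promoters, at −0.22 (adjusted p = 0.0127, lost without untreated B at −0.19 or LPS B at −0.21). At that time 0 were called with P3C, with 2 higher and 1 lower at an unadjusted p under 0.05, beside 5.4% higher and 5.43% lower over all genes. With R848 only Zfp207 was called, beside 6.3% and 6.38%. Among 16 genes such counts are too small to set apart from these shares. Values at 4 h of LPS that did not pass were 0.30 for Zfp91, a ubiquitin ligase that acts on the kinase NIK, −0.29 for Zfp326, which couples splicing to transcript elongation, 0.15 for Zfp106, −0.15 for Zfp746, a repressor of the PGC-1α gene, 0.095 for Zfp598, the ligase that marks collided ribosomes, and −0.09 for both Zfp346, which binds double-stranded RNA, and Zfp451, a SUMO ligase. The members known for silencing retroviral DNA, Zfp638 and Zfp809, gave −0.04 and 0.03. Zfp292 gave 0.09, Zfp318, which B cells need to make IgD, −0.06, and Zfp263 −0.08.

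Of 16 listed partners of KRAB proteins 14 were kept. With LPS at 1 h 0 were called (1 was lower at an unadjusted p under 0.05), where 2.1% of all genes were higher and 1.41% lower, and at 4 h 1 rose and 3 fell, where 10.8% were higher and 16% lower. Those that fell were Uhrf1 (−1.60, adjusted p = 1.19e-05) and Dnmt1 (−0.85, adjusted p = 0.000417), which maintain DNA methylation in dividing cells, and Trim28 (−0.76, adjusted p = 0.0281), the corepressor itself. The riser was Atf7ip, a cofactor of the methyltransferase Setdb1 (0.36, adjusted p = 0.00407). With P3C and R848 at 4 h Uhrf1 fell by 0.94 and 1.17 and Dnmt1 by 0.59 and 0.70, while Trim28 gave −0.42 and −0.39 and was not called. The median of the 14 at 1 h was −0.15 with LPS, beside −0.08 for the 149 members and −0.03 over all genes. Among 26 kept genes named Zbtb, Zscan or Zkscan, which share the finger type, 0 rose (1 at an unadjusted p under 0.05) and 1 fell with LPS at 1 h (7 were lower at an unadjusted p under 0.05), and 2 rose and 2 fell at 4 h. Their median at 1 h of LPS was −0.098, beside the −0.08 of the members. At 1 h of P3C 1 of the 26 fell (7 at an unadjusted p under 0.05), where 1.29% of all genes fell. At 1 h of R848 3 fell (6 at an unadjusted p under 0.05), where 1.38% of all genes fell. Of the 149 members, 36, 29 and 32 were lower at an unadjusted p under 0.05 at 1 h of LPS, P3C and R848, and 4, 5 and 4 were higher. Some of these 26 genes thus fell at 1 h too, in counts too small to set beside the shares of the members. The share of all genes at an unadjusted p under 0.05 was not counted. Zkscan14 was the one of the 26 that fell at both 1 h and 4 h of LPS (−0.46 and −0.64, adjusted p = 0.00201 and 1.63e-05).

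By position, chromosome 7 held 36 of the 143 members with a known chromosome and chromosome 17 held 15. With LPS at 4 h 3 of the 36 fell and 2 rose, and 3 of the 15 fell and 0 rose, beside 14.4% and 14.8% of the other genes of those chromosomes that fell. Neighbouring Zfp genes are often near copies of each other, and how far a probe reads a neighbour's RNA was not tested.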

How the data were processed

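The authors deposited non-normalized signal intensity values and a detection p-value for 45281 probes on 24 Illumina arrays, and a table of log2 values for 23937 probes normalized between arrays. The submitters' processing notes name GenomeStudio 2011.1. Here the log2 intensities were quantile-normalized over all probes, without background correction. Probe names came from the platform's table, with symbols updated through RefSeq identifiers. The group means of 8622 genes were compared in limma 3.58.1 (R 4.3.3), with p-values adjusted by Benjamini and Hochberg, and figures were drawn with Python 3.11.15 and matplotlib 3.10.9. Where both arrays of the dimmer group were undetected, the fold is a lower bound taken at the detection level of each array. Members and lists were chosen with earlier results of these data known. Named genes are the called members with the largest differences in each comparison (12 falls and 12 rises for LPS at 4 h, 3 of each elsewhere), the 5 brightest members, the members with a described role, and others named after their values were seen. Protein sequences were not used here, so KRAB domains and finger numbers were not counted. Alternatives were neqc, median scaling, the authors' table, other detection filters, the mean of a gene's probes, pooled untreated arrays, only the arrays compared, another moderation, the replicate or the slide as a block, and fits without each array.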

Additional observations from a re-analysis of the deposited data

Results flagged for a closer look

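Differences between groups under the same contrast drew attention to 4 values. Zfp281 was higher after LPS than after P3C at 4 h by 0.43 (log2, adjusted p = 0.0269), and both LPS arrays lay above both P3C arrays. The LPS effect at 4 h exceeded that at 1 h by 0.8 for Zfp28 (adjusted p = 0.0004), 0.53 for Zfp207 (adjusted p = 0.0235) and 0.41 for Zfp428 (adjusted p = 0.0232). For Zfp28 the untreated arrays themselves were lower at 4 h than at 1 h, by 0.46 (adjusted p = 0.102). By the way the difference is formed, this 0.46 is part of the 0.8, and its cause was not tested.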

How the results depend on the processing

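Counts are of members called in either direction, first as reported. LPS at 1 h gave 17, then 2 under median scaling, 30 against pooled untreated arrays and 1 when only the arrays compared were fitted. LPS at 2 h gave 17, and 2, 29 and 0 in the same order, and 26 with slide as a random block. LPS at 4 h gave 34, with 18 where genes had to be detected on all 24 arrays and 22 from only the arrays compared. P3C at 1 h gave 9, and 2, 28 and 3. P3C at 2 h gave 1, and 0, 9 and 0, with 0 for detection on all 24 arrays, 3 for the mean of a gene's probes, 2 with trend and robust moderation, 2 with the replicate block and 5 with the slide block. P3C at 4 h gave 6, with 3 under median scaling, 3 for detection on all arrays, 12 for the mean of probes and 15 against pooled untreated arrays. R848 at 1 h gave 11, and 2, 30 and 2, with 5 for detection on all arrays. R848 at 2 h gave 4, and 0, 11 and 0, with 1 for detection on all arrays and 9 with the slide block. R848 at 4 h gave 10, with 3 under median scaling, 5 for detection on all arrays and 21 against pooled untreated arrays. LPS against P3C gave 1, with 0 under neqc, median scaling or only the arrays compared, and 13 with the slide block. LPS against R848 gave 0, with 1 under neqc, the mean of probes or the replicate block, and 13 with the slide block. Untreated 4 h against 1 h gave 0, and 1 with the replicate block. The change in LPS effect gave 3, with 0 under median scaling and 5 for the mean of probes. The causes were not tested. At 1 h of LPS the share of members that fell was 18.1% against pooled untreated arrays (3.42% of all genes), 1.34% under median scaling (0.0812%) and 0.671% from only the arrays compared (0.0812%). Against pooled untreated arrays it was 16.1% with P3C and 17.4% with R848 at 1 h (3.44% and 3.27% of all genes) and 15.4% at 2 h of LPS (10.1%). Detection on all 24 arrays left 93 members to test.

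Leaving out 1 array gave 5 to 9 for LPS at 1 h, 4 to 14 at 2 h and 17 to 20 at 4 h. For P3C the ranges were 3 to 7, 0 to 2 and 2 to 5, and for R848 3 to 6, 0 to 5 and 2 to 3. They were 0 to 1 for LPS against P3C, 0 to 0 for LPS against R848, R848 against P3C and untreated cells over time, and 1 to 3 for the change in LPS effect.

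Signs turned for LPS at 4 h under median scaling for Zfp207 (−0.11), Zfp330 (−0.16), Zfp91 (−0.16), Zfp106 (−0.032), Zfp292 (−0.30), Zfp598 (−0.06) and Zfp809 (−0.12), and in the change of LPS effect for Zfp207 (−0.062). They also turned for Zfp292 with the mean of probes (−0.04), for Zfp346 (0.086), Zfp638 (0.004) and Zfp809 (−0.006) against pooled untreated arrays, and for Zfp809 with the slide block (−0.027). Leaving out 1 array gave −0.221 to 0.059 for Zfp263 and −0.174 to 0.062 for Zfp318, above 0 without untreated A, and −0.083 to 0.003 for Zfp638 and −0.002 to 0.067 for Zfp809, of the other sign without LPS A.

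The letters A and B did not pair samples in the main fit, because the study's methods do not say what equal letters share. The correlation of A minus B between treated and untreated groups was above 0 in each comparison. It was 0.256 to 0.354 at 1 h, 0.344 to 0.428 at 2 h and 0.0612 to 0.161 at 4 h. Whether equal letters share a culture was not tested. With the letter as a replicate block 18 members were called with LPS at 1 h.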

Other observations

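Zfp36, the decay factor of AU-rich mRNAs that the member rule left out, rose by 3.52 (log2) with LPS at 1 h, 1.79 at 2 h and 2.998 at 4 h (adjusted p = 2.06e-08, 2.81e-05 and 3.77e-08), more than any Zfp member in either direction. With P3C it rose by 2.31 at 1 h and 2.39 at 4 h, and with R848 by 2.53 and 2.65. At 2 h it stood 0.72 above untreated with each of these ligands, short of the threshold (adjusted p = 0.0657 and 0.0553). Zfp36l1 gave 0.22, −0.58 and −0.53 with LPS and was not called.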
